A study of Mus musculus with 14 samples.

Results

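The mouse genes named Zfp600 to Zfp999 are protein-coding genes of the Zfp (zinc finger protein) series. They were taken by symbol from the GRCm38.p6 annotation of RefSeq, which holds 171 of them among 21440 protein-coding genes with a known start on chromosomes 1 to 19, X and Y. The mark followed at their starts was H3K4me3, histone H3 trimethylated at lysine 4, measured by CUT&Tag in LSK cells (Lin-Sca1+cKit+ hematopoietic stem and progenitor cells) sorted from the bone marrow of male C57BL/6J mice, with no genetic change named in the labels. The 2 groups were HFD-LSK, from mice fed a high-fat diet from soon after weaning until adulthood (n = 3 peak lists), and LFD-LSK, from mice kept on a low-fat diet over the same time (n = 4 peak lists). The labels do not say whether a library held cells of 1 mouse or of several, so the spread between lists may be in part technical.

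Typical genes of this kind encode tandem C2H2 zinc fingers, each a short fold around a zinc ion that reads a few bases of DNA. The members were taken by symbol and were not split by KRAB domain or number of fingers. Many zinc finger genes carry a KRAB domain, which binds Trim28 and, through Setdb1, brings H3K9 methylation to transposable elements. Such genes often lie in chromosome clusters that grew by tandem duplication, so that neighbours can be near copies of each other. H3K4me3 marks the start of active or poised genes and is strongest at CpG-rich promoters.

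A promoter was taken as 1 kb on either side of each start, and a call was any peak of a list that overlaps it. Peaks were ranked within their own list by fold over local background, on a scale from 0 for the strongest peak to 100 for the weakest, called the percent rank here. Between 6921 and 13094 peaks were in a list, and 78.0 to 90.5% of them overlapped a coding promoter. Of 10 markers of LSK cells, 9 had a call in at least 1 list and 6 in all 7, among them Kit. Ly6a, which encodes the Sca1 used in the sort, had a call in none. T cell, B cell, and granulocyte or monocyte markers had no call at any of 9 promoters. The erythroid factor gene Klf1 had a call in 5 lists, and of 3 stroma and endothelium markers only Cxcl12 had a call, in 2 lists.

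The sequences below show the promoter types behind the results. Each is read 5′ to 3′ on the strand of the gene named, from RefSeq on GRCm38.p6, and ends at the base before the start. CpG dinucleotides are in capitals. Zfp653 stands for the CpG-rich promoters called in every list (chr9:22071377-22071626, minus strand).
Zfp653: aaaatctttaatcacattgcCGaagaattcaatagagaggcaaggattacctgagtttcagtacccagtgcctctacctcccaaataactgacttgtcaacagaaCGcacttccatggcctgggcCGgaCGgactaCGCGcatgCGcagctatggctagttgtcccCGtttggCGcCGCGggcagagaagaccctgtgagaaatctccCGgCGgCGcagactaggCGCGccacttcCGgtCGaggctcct
Zfp942 and Zfp943 start in opposite directions on chromosome 17, and so do Zfp944 and Zfp758. The 94 bases between the first pair (chr17:21962465-21962558) and the 62 bases between the second (chr17:22361401-22361462) are shown on the minus strand. The whole 62-base stretch is found inside the 94-base stretch.
Zfp942 to Zfp943: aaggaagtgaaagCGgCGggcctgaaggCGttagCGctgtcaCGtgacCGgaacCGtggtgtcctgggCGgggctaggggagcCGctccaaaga
Zfp944 to Zfp758: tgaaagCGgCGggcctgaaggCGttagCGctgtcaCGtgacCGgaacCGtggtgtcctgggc
On chromosome 4, Zfp933 (chr4:147848419-147848668, minus strand) was the cluster member with a call, and Zfp984 (chr4:147809789-147810038, minus strand) was its nearest neighbour in the cluster.
Zfp933: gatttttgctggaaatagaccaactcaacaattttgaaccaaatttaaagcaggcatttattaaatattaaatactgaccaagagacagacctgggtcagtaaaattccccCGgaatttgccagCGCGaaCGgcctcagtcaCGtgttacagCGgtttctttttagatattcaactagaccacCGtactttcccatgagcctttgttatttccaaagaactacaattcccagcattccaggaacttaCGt
Zfp984: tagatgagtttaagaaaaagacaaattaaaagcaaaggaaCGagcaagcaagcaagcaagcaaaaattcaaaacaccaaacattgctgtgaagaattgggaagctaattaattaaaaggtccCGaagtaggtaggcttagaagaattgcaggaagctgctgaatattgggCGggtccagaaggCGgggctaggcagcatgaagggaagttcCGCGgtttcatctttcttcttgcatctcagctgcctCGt
On chromosome 2, Zfp971 (chr2:178023034-178023283, plus strand) had a call in 4 lists and Zfp967 (chr2:176520754-176521003, plus strand) in none.
Zfp971: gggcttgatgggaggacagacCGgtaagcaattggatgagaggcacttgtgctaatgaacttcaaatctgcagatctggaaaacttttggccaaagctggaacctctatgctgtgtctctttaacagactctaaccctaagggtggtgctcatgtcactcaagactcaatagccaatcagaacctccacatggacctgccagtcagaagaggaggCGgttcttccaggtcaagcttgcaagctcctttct
Zfp967: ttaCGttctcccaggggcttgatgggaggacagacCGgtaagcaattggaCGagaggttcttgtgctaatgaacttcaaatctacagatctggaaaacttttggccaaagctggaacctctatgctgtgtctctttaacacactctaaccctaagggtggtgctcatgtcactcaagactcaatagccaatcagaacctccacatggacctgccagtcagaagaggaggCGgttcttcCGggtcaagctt
The RefSeq promoter of Zfp967 has the same 300 letters as that of Zfp966, which starts 0.59 Mb away on the other strand. These stretches hold 18 CpG at Zfp653, 8 at Zfp933, 7 at Zfp984, 5 at Zfp967, and 2 at Zfp971.

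Promoters of the 171 genes had a call more often than coding promoters did in general, in every list. In HFD-LSK, 57.3, 71.9, and 54.97% of them had a call in replicates 1, 2, and 3. In LFD-LSK the shares were 40.9, 61.4, 56.7, and 38.01% in replicates 1 to 4. Among all coding promoters the same lists gave 41.4, 51.8, and 45.6% in HFD-LSK and 34.8, 45.1, 43.3, and 30.6% in LFD-LSK. The excess over all coding promoters was 12.7 ± 5.18 percentage points (SD, n = 7), with a lowest value of 6.12 and a highest of 20.1. Zfp genes numbered below 600 (n = 196) had a call more often in every list, and the share of Zfp600 to Zfp999 minus theirs was -6.83 ± 2.19 points (SD, n = 7). It depended on how much of the window a peak had to reach. When a peak had to cover 50% of the window, the members' share fell below that of all coding promoters by 1.61 points on average.

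Of the 171 genes, 40 had a call in all 7 lists (23.4%), against 21.8% of all coding promoters. A further 46 had a call in none (26.9%), against 46.1% of all coding promoters. The other 85 had a call in 1 to 6 lists (49.7%), against 32.1% of all coding promoters. The share in all 7 lists was thus near the background, the share in none lay below it, and the share in 1 to 6 lists above it. Of the 25 members called in 6 lists, 12 were without a call in LFD-LSK replicate 4 and 6 in LFD-LSK replicate 1, the lists with the fewest peaks. Of the 7 members called in a single list, 5 had their call in HFD-LSK replicate 2, the list with the most peaks, and the other 2 in LFD-LSK replicate 3. A missing call shows a promoter under the limit of its list, which differs from list to list, and not an absence of the mark.

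**Figure D1:**
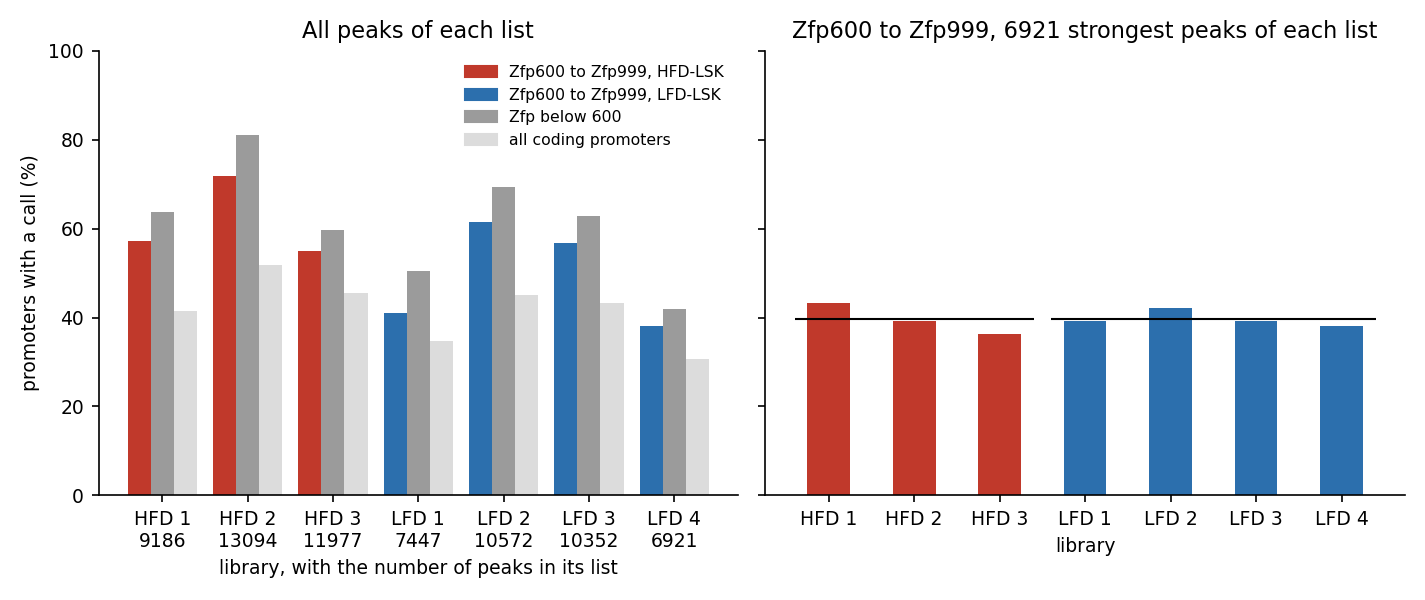
Share of promoters with a call (%) in each of the 7 lists, on the left with all peaks of a list (red or blue bars, Zfp600 to Zfp999; dark gray, Zfp genes below 600; light gray, all coding promoters) and on the right for Zfp600 to Zfp999 with the 6921 peaks of lowest p-value from each list. Horizontal lines are group means. The members' bars exceed the light gray bars in all 7 lists, and on the right the group means are 39.6% in both diets.

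By diet, a mean of 61.4% of members had a call in the 3 HFD-LSK lists, with an SD of 9.19. The 4 LFD-LSK lists had a mean of 49.3% and an SD of 11.5. The difference of 12.1 points was about the size of the SD within LFD-LSK, and the ranges overlapped, since 2 LFD-LSK lists lay above the lowest HFD-LSK list. The number of peaks moved with it, at 11419 ± 2013 in HFD-LSK and 8823 ± 1907 in LFD-LSK. With the same number of peaks from every list, the shares were 39.6 ± 3.52% in HFD-LSK and 39.6 ± 1.75% in LFD-LSK, a difference of -0.0487 points. The difference also rested on HFD-LSK replicate 2, without which it was 6.87 points. Over all coding promoters the shares differed in the same direction, by 7.79 points, and by 0.375 points with equal numbers of peaks. For 68 members (39.8%) the HFD-LSK lists held calls in a higher proportion than the LFD-LSK lists did, and for 17 (9.94%) in a lower one. Of all coding promoters, 26.7% and 5.42% did so. Both shares were higher among the members, which also were more often called in only 1 to 6 lists (49.7% against 32.1%).

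No member had a call in every HFD-LSK list and no LFD-LSK list, where 33 coding promoters (0.154%) did. Nor did a member have a call in every LFD-LSK list and no HFD-LSK list, a pattern of 0% of coding promoters. Fisher's exact test gives such a pattern p = 0.0286 (two-sided), the smallest it can give with 3 and 4 lists. There were 5 members a single list away from the first pattern. That count was not made over all coding promoters and is not read as a result about the members. Zfp971 and Zfp677 had a call in all 3 HFD-LSK lists and, in LFD-LSK, in replicate 2 alone, and Zfp983, Zfp937, and Zfp711 in 2 HFD-LSK lists and no LFD-LSK list. In the other direction Zfp809, a KRAB protein that recruits Trim28 to the primer-binding site of retroviruses, had a call in all 4 LFD-LSK lists and, in HFD-LSK, in replicate 2 alone. Zfp677, Zfp983, and Zfp937 were singled out after their values were seen.

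The members fell into 12 chromosome clusters, defined as runs of at least 4 members with starts at most 1 Mb apart. The clusters held 94 members and 77 lay outside. Calls were uneven between clusters, from 4.76 ± 3.25% of members (SD over the 7 lists) on chromosome 4 to 93.7 ± 5.94% in a chromosome 7 cluster. Members outside clusters stood at 59.0 ± 11.5%.

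The chromosome 4 cluster held 15 members from Zfp990 to Zfp933 in 2.34 Mb (chr4:145510759-147848418). Of these, 14 had a call in no list. The whole span held between 0 and 1 peak in a list, and none of the 3 other coding genes in it had a call. Zfp933, at the edge of the cluster, had a call in 5 lists. Its percent ranks were 83.8, 48.7, and 57.2 in HFD-LSK and 65.8 and 77.7 in LFD-LSK replicates 2 and 3, and its folds lay between 5.60 and 14.1. Zfp933 was thus a middle to weak peak wherever it had a call.

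The chromosome 2 cluster was the other nearly empty one, with 10 members from Zfp831 to Zfp931 in 3.48 Mb (chr2:174598682-178078425). Calls covered 7.14 ± 7.56% of them, and 1.43% with equal numbers of peaks. Zfp971 had percent ranks of 97.6, 56.5, and 19.5 in HFD-LSK and 91.3 in LFD-LSK replicate 2. Zfp931, its neighbour, had a call in HFD-LSK replicate 2 alone, at percent rank 74.1. The other 8 had no call at the start, although Zfp831 had a peak elsewhere in the gene in 2 lists.

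Chromosome 17 held a cluster of 14 members from Zfp677 to Zfp945 in 1.48 Mb (chr17:21383748-22867134) that was between these extremes. All 14 had a call in at least 1 list and none in all 7. Counts of called members were 10, 13, and 8 in HFD-LSK and 2, 11, 8, and 2 in LFD-LSK. The group means, 73.8 ± 17.98% and 41.1 ± 32.1%, differed by 32.7 points, and the lists overlapped. The 2 low lists were those with the fewest peaks, and with equal numbers of peaks the difference was 22.0 points, between 45.2 ± 10.9% and 23.2 ± 17.9%. This was the largest difference among the 12 clusters, picked out after the values were seen. In that setting the other clusters ran from -20.8 points on chromosome 9 to 12.5 points in the smaller chromosome 8 cluster. Over all coding promoters the difference was 7.79 points, and 0.375 points with equal numbers of peaks. Zfp946 had a call in 6 lists, the most in the cluster. The divergent pair Zfp942 and Zfp943, which share 1 peak, ranked at 39.1 and 30.3 in HFD-LSK replicates 1 and 2 and at 32.3, 79.7, and 84.7 in LFD-LSK replicates 2 to 4. The pair Zfp944 and Zfp758, which shares 79.3 and 86.7% of its 31-base words with the first pair, had a call in the 3 HFD-LSK lists and in LFD-LSK replicates 2 and 3, at 69.8, 49.0, 37.8, 72.4, and 79.7.

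At the other end, the chromosome 7 cluster of 9 members from Zfp771 to Zfp646 in 0.632 Mb (chr7:127244526-127876914) had 8 or 9 members called in each list, and 6 of the 9 in all 7. Zfp668 and Zfp646 start 78 bases apart in opposite directions and share a peak. Zfp768 in the same cluster ranked at 8.12 and 18.4 in HFD-LSK replicates 1 and 2 and between 0.705 and 11.7 in LFD-LSK, and at 89.1 in HFD-LSK replicate 3. The 5 members on chromosome 6, among them Zfp777, Zfp746, and Zfp775 in all 7 lists, stood at 88.6 ± 15.7%. The clusters on chromosome 13 (7 members), chromosome 8 (6 and 4 members), chromosome 9 (4 members), the second on chromosome 17 (6 members), and 2 more on chromosome 7 (5 and 9 members) lay between 52.4 and 73.8%.

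**Figure D2:**
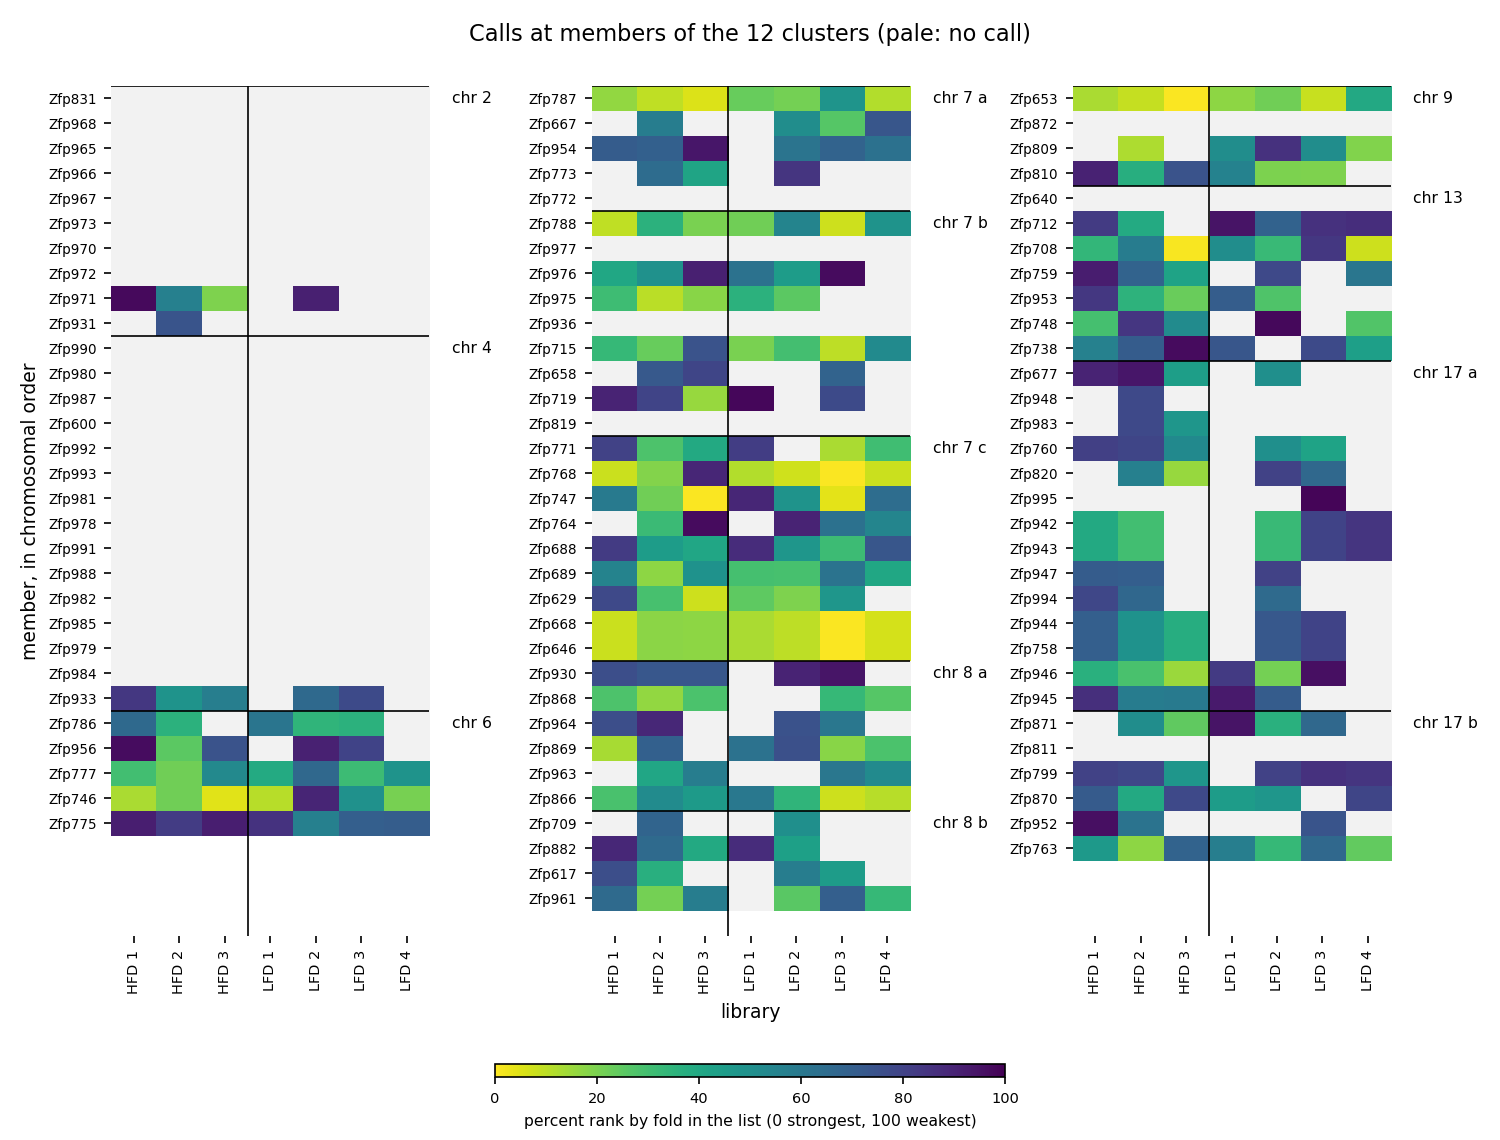
Calls at the 94 clustered members (rows, in chromosomal order) in the 7 lists (columns, HFD-LSK left of the line). Color is the percent rank of the peak by fold in its list, from 0 (strongest, yellow) to 100 (weakest, dark), and pale cells have no call. The chromosome 2 and 4 clusters are almost without calls, and the third chromosome 7 cluster is nearly complete.

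Promoter letters were at hand for 148 of the 171 members. They differed between the called and the uncalled in CpG content. The ratio of observed to expected CpG in the 300 bases had a median of 0.748 in members called in all 7 lists (n = 33), 0.564 in those called in 1 to 6 (n = 77), and 0.319 in those called in none (n = 38). The same order held over all coding promoters, with medians of 0.822, 0.733, and 0.218. At a ratio of at least 0.6, 72.0 ± 13.1% of members had a call (n = 71 promoters), close to the 71.4 ± 10.2% of all coding promoters. Under 0.6, the members' share was 38.8 ± 12.1% (n = 77 promoters) and that of all coding promoters 16.5 ± 4.35% (SD over 7 lists in each case). Zfp788, with a CpG ratio of 0.326, was a low-CpG member called in all 7 lists, at percent ranks between 7.62 and 54.95. Zfp819, a KRAB gene known from germ cells and pluripotent cells, had a ratio of 1.05 and no call in any list.

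Repeated sequence moved with the missing calls. Each 300-base promoter was read as 270 overlapping 31-mers, and a 31-mer was repeated when the mouse genome (GRCm39, used only to count) holds it more than once. All 9 promoters at hand in the chromosome 2 cluster and 9 of 11 in the chromosome 4 cluster were over 50% repeated. Among members with no repeated 31-mer, 68.5 ± 11.99% had a call (n = 88 promoters), and among all coding promoters of that kind 48.8 ± 8.05% (n = 13748 promoters). Among those over 50% repeated it was 18.1 ± 9.97% (n = 30 promoters), and over all coding promoters of that kind 2.02 ± 0.820% (n = 1378 promoters, SD over 7 lists in each case). Reads from a repeated stretch cannot be placed with certainty, and the part of this in the missing calls was not tested. Of the 30, the 19 whose typical 31-mer occurs more than 2 times in the genome had a share of 3.76 ± 3.98%, and the 11 with up to 2 copies 42.9 ± 21.5%. Zfp942, Zfp943, Zfp944, and Zfp758 are among the 11, with 79.3 to 89.6% of their 31-mers repeated. They form divergent pairs whose windows overlap, so a single peak can count for both genes of a pair. Shares by number of copies were not computed over all coding promoters. There were also 10 members with no repeated 31-mer and no call in any list: Zfp641, Zfp648, Zfp652, Zfp660, Zfp663, Zfp692, Zfp811, Zfp819, Zfp872, and Zfp879. Zfp652 encodes a repressor that binds the corepressor Cbfa2t3, and the other 9 were named because they complete this count.

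**Figure D3:**
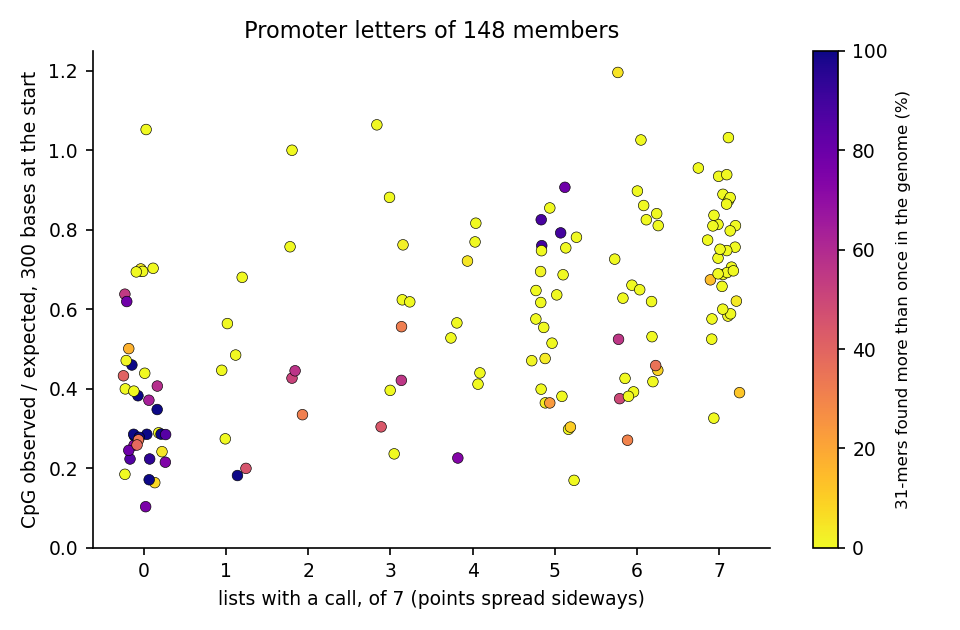
Ratio of observed to expected CpG in the 300 bases at the start (vertical axis) against the number of lists with a call (horizontal axis, 0 to 7) for the 148 members with a promoter sequence. Color is the percent of 31-mers found more than once in the genome. Dark points gather at 0 lists, and no member called in all 7 lists is over 50% repeated.

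Starts that share a window had more calls. For 12 members another coding gene starts within 1 kb, and 90.5 ± 13.1% of them had a call, against 51.8 ± 11.8% of the other 159 (SD, n = 7 lists). The same difference was seen over all coding promoters, at 81.9 ± 8.55% and 37.1 ± 6.96%. In such a window the peak cannot be assigned to either gene. The 12 include Zfp830, which starts 24 bases from Cct6b, Zfp654, 64 bases from Cggbp1, and the 6 members that pair with each other.

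Among peaks of coding promoters, those of the members were on average weaker and narrower. The median percent rank was 48.9 ± 4.57 over the members called and 42.6 ± 1.62 over all coding promoters called (SD, n = 7). Zfp genes numbered below 600 stood at 49.0 ± 5.17, so the weaker rank was not particular to the members. Against all coding promoters, the members' median was weaker in 6 lists. In LFD-LSK replicate 4 the order was turned, with 40.5 for members and 43.4 for all. By list, members stood at 55.8, 48.7, and 47.4 in HFD-LSK and 51.1, 49.5, 49.3, and 40.5 in LFD-LSK, so the diets overlapped. Median widths were 658.5, 1026, and 614.5 bp in HFD-LSK and 600, 748, 647, and 442 bp in LFD-LSK. All coding promoters gave 924, 1342, and 872 bp, and 782, 1044.5, 894, and 561 bp. The members' median was 0.740 ± 0.0328 of that of all coding promoters (SD, n = 7), with a range from 0.705 to 0.788. Zfp genes numbered below 600 lay between, with a median width of 780 ± 190 bp (SD, n = 7). The same means were 677 ± 179 bp for the members and 917 ± 240 bp for all coding promoters. Member and background widths rose and fell together from list to list.

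Zfp830 had the strongest peak of the 40 members called in all 7 lists by mean percent rank, 7.14. It encodes a nuclear protein of pre-mRNA processing that hematopoietic cells need. Its ranks were 13.7, 5.95, and 4.66 in HFD-LSK and 3.56, 9.25, 8.58, and 4.24 in LFD-LSK, so it stood in the top 25% in every list. Among the 40, this held besides only for the pair Zfp668 and Zfp646, at 7.92, 17.4, and 17.1 in HFD-LSK and 12.7, 9.82, 0.604, and 6.35 in LFD-LSK. Zfp638, a component of the silencing of unintegrated retroviral DNA together with the HUSH complex, ranked between 1.55 and 12.8 in 6 lists and at 53.3 in HFD-LSK replicate 3. Zfp654 ranked between 0.052 and 12.5 in 6 lists and at 80.1 in the same replicate. Zfp706, a regulator of the exit of embryonic stem cells from self-renewal, did likewise, with 71.5 there and 1.56 to 12.6 elsewhere. At these 3 genes and at Zfp768, HFD-LSK replicate 3 stood apart from the other lists.

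The weakest of the 40 was Zfp775, at 91.8, 82.1, and 91.7 in HFD-LSK and 85.4, 56.5, 69.6, and 70.4 in LFD-LSK. Zfp825, Zfp606, Zfp688, and Zfp958 followed, with mean ranks of 64.7, 58.7, 58.2, and 55.4. Ranks of single promoters moved widely between lists. In 23 of the 40 the highest and the lowest rank over all 7 lists, both diets together, were more than 50 apart. That count was not made over all coding promoters. Wide moves were also seen between lists of the same diet. Zfp687, a subunit of a complex with Zmynd8, ranked at 1.08 in HFD-LSK replicate 2 and at 97.5 in HFD-LSK replicate 3.

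Members with known roles were spread over the whole range. Zfp622, a factor of 60S ribosome maturation, had ranks of 25.3, 47.5, and 53.2 in HFD-LSK and 23.3, 19.6, 44.7, and 40.5 in LFD-LSK. Zfp644, which works with the H3K9 methyltransferases Ehmt1 and Ehmt2, ranked at 11.5, 3.39, and 16.4 in HFD-LSK and at 66.8, 32.7, 16.7, and 14.6 in LFD-LSK. Both groups overlapped at Zfp622, and at Zfp644 the lowest LFD-LSK value lay below the highest in HFD-LSK. Zfp708 and Zfp932, KRAB proteins that silence endogenous retroviral elements, had a call in 7 and 6 lists. Zfp932 ranked at 37.2, 87.2, and 4.38 in HFD-LSK and at 53.6, 16.7, and 40.2 in LFD-LSK replicates 1 to 3. Zfp809 ranked at 12.2 in HFD-LSK replicate 2 and at 50.8, 85.8, 51.1, and 18.9 in LFD-LSK. Zfp827, which recruits the NuRD complex to telomeres, had a call in 6 lists with widths from 1290 to 3104 bp and its summit 1007 to 1104 bases from the start. The study listed Zfp939 among the genes with more H3K4me3 after HFD in both LSK cells and GMP (granulocyte-macrophage progenitors), by peak counts. Here it had a call in HFD-LSK replicates 1 and 2 at 59.3 and 37.3. In LFD-LSK it had one in replicates 1 to 3 at 83.1, 85.04, and 71.99. Its 2 HFD-LSK ranks lay nearer the top, but 1 list of each diet had no call, and the study chose the gene in part on these libraries. A rank within a list is also another measure than a count, and GMP were not examined here. The X-linked Zfp711, a CpG promoter binding partner of Phf8, had a call in HFD-LSK replicates 2 and 3 only, at the weak ranks of 90.02 and 82.2. Zfp750, a factor of epidermal differentiation, had no call in any list.

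The percent rank by fold was compared between diets for every coding promoter called in all 7 lists (n = 4677), by a two-sided exact permutation test that takes all 35 ways to divide the lists into 3 and 4 (smallest p 0.0286). None of the 40 members had p under 0.05, nearer the top or farther from it in HFD-LSK, against 1.09% and 1.33% of all promoters tested. The largest differences were 31.6 at Zfp768 (means of 38.6 ± 44.1 and 6.94 ± 4.59 over HFD-LSK and LFD-LSK, exact permutation p = 0.0857) and -29.5 at Zfp746 (13.02 ± 8.61 and 42.6 ± 35.5; exact permutation p = 0.286). Zfp775 reached the same p as Zfp768, with 88.5 ± 5.57 in HFD-LSK and 70.5 ± 11.8 in LFD-LSK. The median difference was -1.58 for the members and -1.79 for all promoters. After Benjamini-Hochberg adjustment the smallest p was 0.953, so no promoter passed. To pass at 0.05, most of the 4677 promoters would have to be at the smallest exact permutation p, 0.0286. The adjusted test could thus hardly be passed, and no lack of difference is read from it. limma on normal scores of the ranks gave 1 of the 40 members at an unadjusted p under 0.05, farther from the top in HFD-LSK. Of all 4677 promoters tested, 139 were farther from the top and 84 nearer at that limit. After adjustment no member and 2 of all promoters passed.

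**Figure D4:**
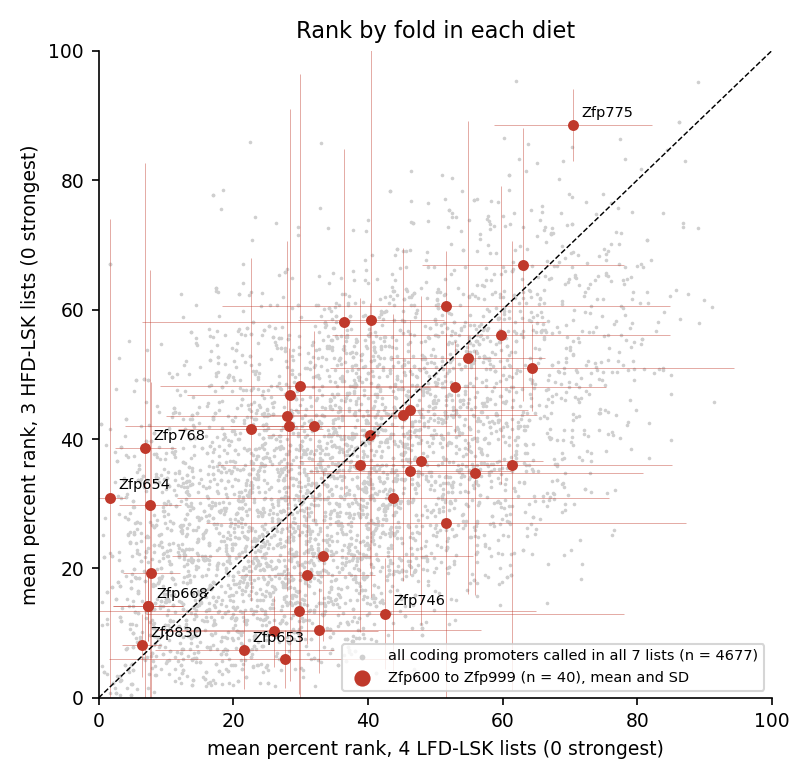
Mean percent rank by fold in 4 LFD-LSK lists (horizontal) and 3 HFD-LSK lists (vertical) for the 4677 coding promoters called in all 7 lists (gray) and the 40 members among them (red, bars are SD). The members lie on both sides of the dashed line of equal rank. Of the 40, 21 (52.5%) ranked nearer the top in HFD-LSK, near the 54.4% of all 4677 promoters.

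Peak width was compared the same way, on log2 widths centered on the median of each list. At p under 0.05, 2 of the 40 members were wider in HFD-LSK, against 0.577% of all promoters tested, and none was narrower, against 1.71%. None was wider with equal numbers of peaks, where 17 members had a call in all 7 lists, nor under the 50% cover rule, where 1 had. Zfp653 was 896, 1606, and 1572 bp wide in HFD-LSK and 609, 1039, 879, and 458 bp in LFD-LSK. The raw widths overlapped at 1 LFD-LSK list, and after centering the difference was 0.47 on the log2 scale (exact permutation p = 0.0286, adjusted p = 1). Zfp691 was 1010, 1737, and 870 bp wide in HFD-LSK and 476, 705, 640, and 297 bp in LFD-LSK, with no overlap. Its difference was 0.78 on the log2 scale (exact permutation p = 0.0286, adjusted p = 1). The ranks of both promoters overlapped between diets, with exact permutation p = 0.143 at Zfp653 and 0.914 at Zfp691. No width of any promoter passed after adjustment, which the test could hardly allow here either. The median log2 difference was 0.06 for the members and -0.01 for all promoters.

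The widest peaks were at Zfp703, a corepressor known from luminal breast cancer (mean 2342 bp), Zfp654 (2204 bp), Zfp687 (1829 bp), and the pair Zfp668 and Zfp646 (1739 bp). Zfp687 had widths of 2306, 3108, and 2391 bp in HFD-LSK and 432, 1729, 2561, and 279 bp in LFD-LSK. Its difference of 1.18 on the log2 scale was the largest of the 40 and did not pass the test (exact permutation p = 0.257). Zfp703 showed the same low pair of lists, with 883 and 1046 bp in LFD-LSK replicates 1 and 4 and 2671 to 3177 bp elsewhere.

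**Figure D5:**
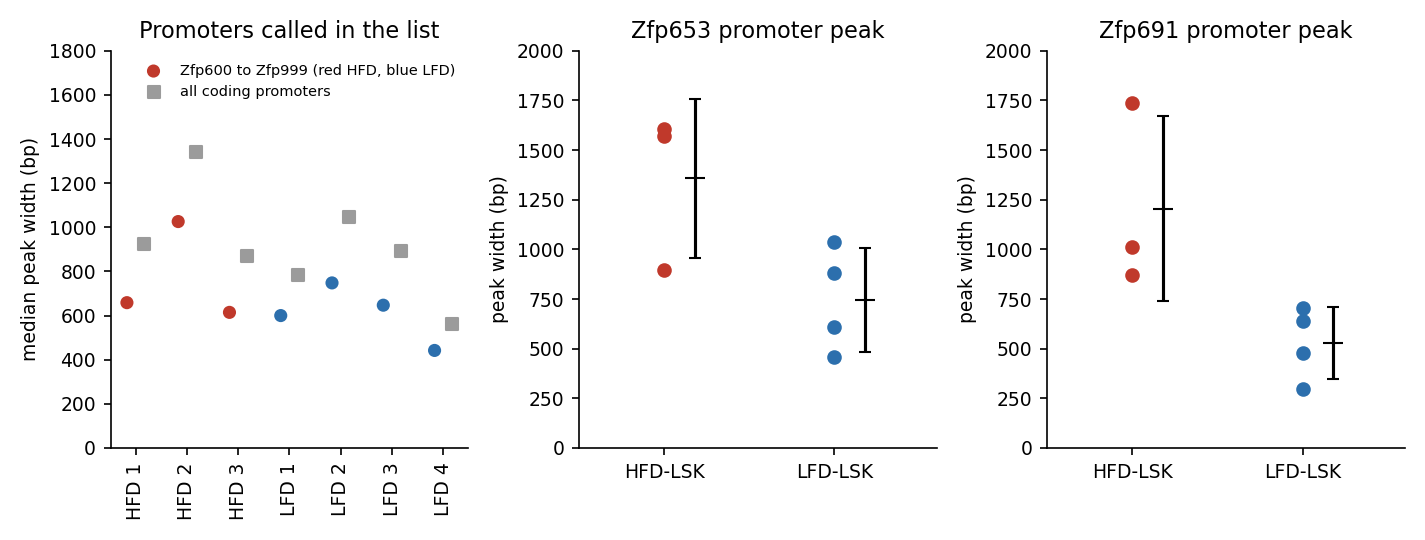
Left, median width (bp) of peaks at members (circles) and at all coding promoters (squares) in each list. Middle and right, widths (bp) of the peak at Zfp653 and Zfp691 in each list, with the mean and SD beside the points. Squares lie above circles in all 7 lists, and the 3 HFD-LSK widths of Zfp691 lie above the 4 LFD-LSK widths.

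The partners of KRAB zinc finger proteins were followed as a list of 23 genes of the corepressor complex and of H3K9 methylation. All 23 had a call in at least 1 list, against 53.9% of all coding promoters, and 13 had one in all 7 (56.5%), against 21.8%. The median over the list of the mean percent ranks was 44.6, and the mean ranks ran from 8.04 at Hdac2 to 91.6 at Tasor. Trim28, the KRAB corepressor itself, had a mean percent rank of 9.29 and stood near the strong end. Setdb1, the H3K9 methyltransferase of the complex, had a call in 3 lists, 2 of HFD-LSK and 1 of LFD-LSK, at a mean rank of 80.8. Of the 13, only Suv39h2, another H3K9 methyltransferase, had a p under 0.05 by rank, nearer the top in HFD-LSK (exact permutation p = 0.0286). Of all promoters tested, 1.09% were nearer the top at that limit and 1.33% farther from it. Suv39h2 did not pass after adjustment, which the test could hardly allow. None of the 13 had a p under 0.05 by width, against 0.577% wider and 1.71% narrower of all promoters tested.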

How the data were processed

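H3K4me3 CUT&Tag peak lists of LSK cells were used, 3 from HFD-LSK and 4 from LFD-LSK mice. The IgG control samples were not analysed here. Per the labels, the authors used Trim Galore, Bowtie2, Picard, and MACS2 on GRCm38, and 1 list was deposited per sample. The study's methods name another caller and build, and the coordinates were read as GRCm38. The deposited columns hold fold over local background (a ratio), the −log10 p-value, the −log10 q-value, and a score equal to 10 times the −log10 p-value, cut to a whole number. Read depth is not given in the sources used here, and a list with more peaks also gives more calls.

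The members and lists were chosen with earlier results of these data known. Starts came from the RefSeq GRCm38.p6 promoter table for 148 members and from gene ends, with the strand of GENCODE, for 23. The strongest peak overlapping 1 kb either side of a start gave fold rank and width. Ranks and log2 widths, centered on each list's median, were compared by a two-sided exact permutation test over 35 splits with Benjamini-Hochberg adjustment over 4677 promoters called in all 7 lists. limma 3.58.1 in R 4.3.3 served as an alternative, and Python 3.11.15 with scipy 1.17.1 for the rest. The tests were checked on simulated data. Alternatives were the −log10 q-value minimum, equal numbers of peaks, the window, the summit or 50% cover rule, the cluster distance, and leaving out each list. Added after seeing the data were gene ends as further starts, limma with the replicate block or without each list, and members without repeated 31-mers.

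Genes named by rule were those with known roles, the 5 strongest, weakest, and widest of the members called in all 7 lists, those with p under 0.05, and the members called most often in each cluster, up to 3. Others were named as neighbours, cluster ends, or partners of these. A further listed gene was not analysed here. A marker result is not reported here.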

Additional observations from a re-analysis of the deposited data

Results flagged for a closer look

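Among 80 quantities tested in the 4 LFD-LSK lists or over their members, 5 had 1 list far from the other 3. Chance alone sets about 1 in 20 apart for continuous values. That rate does not hold for cluster shares, where lists tie and 1 promoter is enough. The difference in median percent rank between members and all coding promoters was -2.85 in LFD-LSK replicate 4, where the other lists had 6.43, 7.27, and 7.36. The peak at Zfp869 was 349 bp wide in LFD-LSK replicate 2 and 656, 675, and 710 bp in the others. The share of called members in the chromosome 2 cluster was 10% in 1 LFD-LSK list and 0% in the other 3, which is a single promoter, Zfp971. In the third chromosome 7 cluster 1 list had 100% and the other 3 had 88.9%, and in the chromosome 9 cluster 1 list had 50% and the other 3 had 75%. Each of these cluster differences is 1 promoter.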

How the results depend on the processing

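Values were recomputed under other settings. A share, rank, or width was taken as unchanged if it kept its sign and stayed within the SD between lists. A count was taken as unchanged if it was equal to the main count or within 1.5 times of it. By these rules 319 values were unchanged, 57 moved, and 2 reversed. The causes were not tested. With equal numbers of peaks, the diet difference in share was -0.0487 points and the excess over all coding promoters 7.27 points. In that setting 17 members had a call in all 7 lists, 2 in HFD-LSK alone, and 0 were wider in HFD-LSK. The 2 were the divergent pair Zfp944 and Zfp758, whose windows overlap. Counts in 1 diet alone under other settings, here and below, were not made over all coding promoters. With a peak covering 50% of the window, the excess was -1.61 points, 1 member had a call in all 7 lists, 106 in none, and 2 in HFD-LSK alone, 0 were wider, the median percent rank was 24.0, and the median width 1344 bp. With a −log10 q-value of at least 5, 25 members had a call in all 7 lists, 1 in HFD-LSK alone, and 1 was wider. The 0.5 kb window, the summit rule, and widths without centering each left 1 wider member, and the 3 kb window gave 1 ranked nearer the top. Members with no repeated 31-mer exceeded all coding promoters, repeated ones included, by 26.7 points and coding promoters of their own kind by 19.7 points, and 10 of them had no call.

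Leaving out 1 list at a time, 0 to 3 members had calls in every HFD-LSK list alone (3 when HFD-LSK replicate 1 was dropped, 2 when LFD-LSK replicate 2 was) and 0 to 1 in LFD-LSK alone (1, Zfp809, without HFD-LSK replicate 2). The diet difference in share ran from 6.87 to 16.2 points. By limma 1 member had a weaker rank in HFD-LSK, 0 to 2 with a list left out, 1 to 3 were wider, and 0 to 1 narrower. With a list left out, 102 to 228 of all 4677 promoters had a weaker rank, 56 to 143 were wider, and 37 to 107 narrower. The labels do not say whether same-numbered lists were paired, while the study's own comparison allowed for batch and pairing. After group means were removed, ranks in same-numbered lists had correlations of 0.180, 0.0175, and 0.0446 for replicates 1, 2, and 3. Lists with different numbers were not compared, so these values do not settle whether lists were paired. With a replicate block the diet difference in share was 8.38 points, and limma gave 1 member farther from the top and 1 wider. Over all 4677 promoters that fit gave 116 and 123.

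By cluster, equal numbers of peaks gave 44.9% on chromosome 13, 32.7 and 40.5% in the first and the second chromosome 17 cluster, 1.43% on chromosome 2, 0.952% on chromosome 4, 60% on chromosome 6, and 36.5 and 82.5% in the chromosome 7 clusters Zfp788 to Zfp819 and Zfp771 to Zfp646. Under the 50% cover rule the shares were 0% on chromosome 13 and in the second chromosome 17 cluster, 12.2% in the first, 0.952% on chromosome 4, 25.7% on chromosome 6, 20, 12.7, and 41.3% in the 3 chromosome 7 clusters, 4.76 and 7.14% in the 2 chromosome 8 clusters, and 14.3% on chromosome 9. The cluster Zfp771 to Zfp646 had 85.7% both with the q-value minimum and with the summit rule. A 0.5 Mb cluster distance kept 4 members on chromosome 2, at 17.9%, and split chromosome 4 into 7 members at 0% and 8 at 8.93%. No share can be read as an absence of the mark, since read depth is unknown.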
